A study of Mus musculus with 9 samples.

Results

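The genes described here encode secreted ligands of 4 developmental families, Wnt, Fgf, Bmp and Gdf, and they were followed through 2 histone marks in mouse leukemia cells driven by MLL-ENL, the product of a Kmt2a and Mllt1 fusion that causes myeloid leukemia. They were taken by symbol alone, as every row whose gene symbol is one of these family names followed by a number and at most the letter a or b. This gave 62 genes of 26611 rows with a symbol: 19 Wnt, 22 Fgf, 11 Bmp and 10 Gdf genes. The symbol rule does not read function. It also takes Bmp1, which encodes a procollagen protease, and Fgf11, Fgf12, Fgf13 and Fgf14, whose products stay inside the cell and bind sodium channels.

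Chromatin was immunoprecipitated for H3K27me3, H3K4me3 or, with the M2 antibody, the Flag tag in 3 genotypes, all of them MLL-ENL leukemia. Their labels are fl (floxed here), ΔERT2 (deleted here) and ΔERT2 + Hhex-F, the deleted genotype to which Flag-tagged Hhex was added (rescue here). No label says which gene is floxed. The series title speaks of a need for Hhex, a homeodomain transcription factor, and that gene is the one added back with a tag. The sources used here do not give the number of clones, cultures or animals behind a line. Each of the 9 combinations is 1 library. Differences are therefore described between libraries, with counting error as the only error, and conditions were not tested.

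Wnt proteins signal through Frizzled receptors with Lrp5 or Lrp6 co-receptors, and in the canonical branch they stabilise beta-catenin. Fgf proteins activate receptor tyrosine kinases, with Klotho co-receptors for the endocrine members. Most Bmp and Gdf proteins belong to the TGF-beta superfamily and signal through paired serine/threonine kinase receptors and Smad factors. These genes direct patterning in the embryo, and many are textbook targets of Polycomb repressive complex 2 (PRC2), which places H3K27me3, in cells where they are silent. H3K4me3 marks promoters that are active or poised, and promoters with both marks are called bivalent.

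Values of H3K27me3 are read counts over the gene span, and values of H3K4me3 are read counts in a window of 301 bp per gene at a position the sources used here do not give. CPM is the count scaled to 1000000 counts in named genes. The H3K27me3 libraries held 2444487 (floxed), 2535576 (deleted) and 4203349 (rescue) such counts and the H3K4me3 libraries 645240, 420701 and 395133. Genes averaging 20 or more counts across a mark's 3 libraries are termed measured. A size rule named differences: lower or higher required a CPM ratio of 1.5 or more and a 95% exact interval that left out 1. Intervals in parentheses after a ratio are these intervals. As a check of the cell type, 12 of 15 myeloid markers were measured in H3K4me3, against 25.1% of all genes. Among them were Cebpe, Spi1, Kit and Ctsg, whereas Csf1r had 10, 4 and 1 counts and Ptprc 0 in all 3 libraries. None of 6 T-cell markers was measured, nor any of 6 erythroid and megakaryocyte markers, and 1 of 6 B-cell markers (Ebf1) and 1 of 8 stromal and endothelial markers (Pdgfrb) were. The summed H3K4me3 of each list in floxed, deleted and rescue was 1957, 1692 and 1966 CPM for myeloid, 14.0, 35.6 and 38.0 for T-cell, 57.3, 78.4 and 53.2 for B-cell, 105, 109 and 91.1 for erythroid and 149, 214 and 122 for stromal markers. Some myeloid markers also differed singly. In H3K4me3, Elane (CPM ratio 0.472) and Ly6c2 (0.511) were lower in deleted against floxed. Elane (2.2) and Irf8 (2.13) were higher in rescue against deleted. Against floxed, rescue was lower at Mpo (0.587) and higher at Irf8 (1.93). In H3K27me3, rescue was higher than both others at Mpo, which passed the filter through its rescue count, and lower at Kit and Csf1r. The part of these differences in the results was not tested. In H3K4me3 the ligand genes summed to 1407, 1600 and 1326 CPM.

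The ligand genes carried dense H3K27me3 in all 3 genotypes. Of the 62 genes, 35 (56.5%) lay in the top 10% of all genes by floxed H3K27me3 density, in CPM per kb of counted length, 34 in the deleted and 31 in the rescue library. Their median density was 4.68 CPM per kb in floxed, 4.53 in deleted and 4.11 in rescue, against 0.204, 0.231 and 0.231 over all genes. The families differed in level: 15 of 19 Wnt genes, 12 of 22 Fgf genes, 5 of 11 Bmp genes and 3 of 10 Gdf genes lay in the floxed top 10%, with family medians of 8.44, 4.71, 4.16 and 1.25 CPM per kb. For comparison, 30 of 39 Hox genes and 45 of 76 Fox, Sox and Tbx factor genes lay in that class, with medians of 26.4 and 8.68. These group medians describe single libraries and were not tested against each other.

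**Figure D1:**
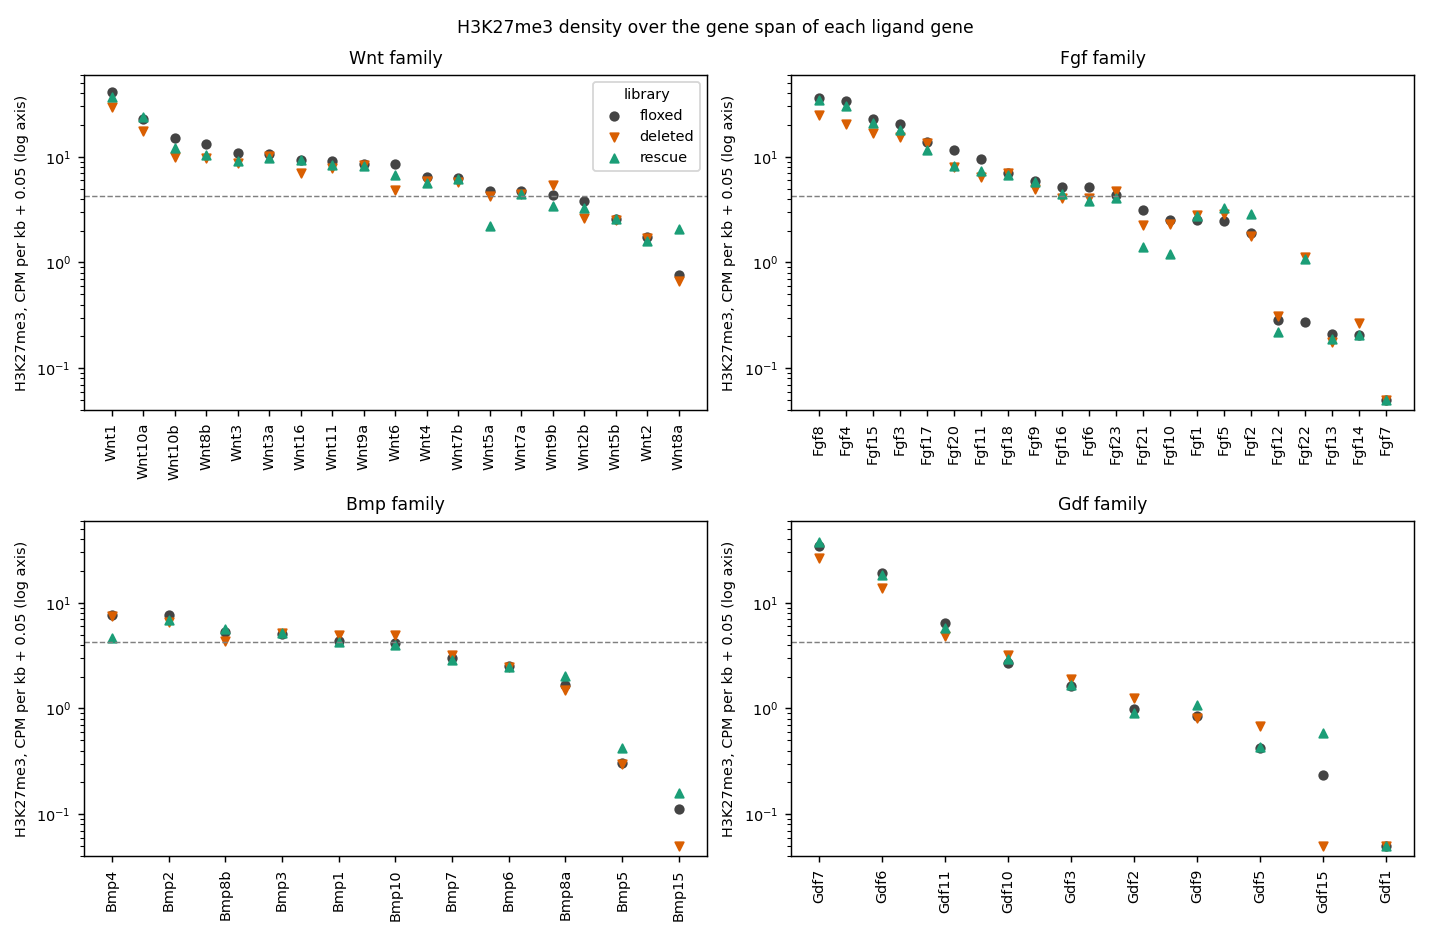
H3K27me3 density of each of the 62 ligand genes, in CPM per kb of counted length plus 0.05 on a log axis, by family and ordered by the floxed library; each point is 1 library and the dashed line is the lowest floxed density in the top 10% of all genes (4.22). The 3 libraries lie close together for most genes, and Wnt5a, Fgf10, Fgf2 and Wnt8a are among those whose rescue point stands apart.

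The 3 densest genes of each family were as follows. Wnt1, a midbrain organiser signal, had the highest H3K27me3 density of the Wnt family at 40.8, 29.7 and 37.1 CPM per kb in floxed, deleted and rescue. Wnt10a followed at 22.5, 17.3 and 23.7, and its relative Wnt10b, next to Wnt1 on chromosome 15, stood at 15.0, 9.98 and 12.2. The deleted library was the lowest of the 3 at each of these genes. Fgf8, a signal of the limb and brain, reached 35.8, 24.7 and 34.0 CPM per kb. Fgf4, which acts in the blastocyst and limb bud, had 33.6, 20.6 and 30.0 CPM per kb, and Fgf15, an intestinal hormone, had 22.9, 16.7 and 20.7. The deleted library was again the lowest at all of these. Gdf7, a roof plate signal, stood at 34.4, 26.5 and 37.8 CPM per kb, Gdf6, a joint and skull factor, at 19.1, 13.7 and 18.4, and Gdf11, an axial patterning factor, at 6.39, 4.78 and 5.74. By RefSeq positions another gene overlaps 71.7% of the span of Gdf7 and 71.4% of that of Fgf15, so their counts may hold signal of the neighbour. Bmp densities were lower: Bmp4 had 7.69, 7.41 and 4.60 CPM per kb, Bmp2 7.60, 6.60 and 6.78, and Bmp8b 5.22, 4.26 and 5.62. Bmp8b and Bmp8a are close paralogs that may share reads. Bmp2 and Bmp4 are near relatives that act in bone and mesoderm.

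Long genes of the intracellular branch and a few others had little H3K27me3 per kb. Fgf12, Fgf13 and Fgf14 had 0.239, 0.158 and 0.158 CPM per kb in floxed, and Bmp5 had 0.258. A density over a long gene can be low with many counts. Fgf12 had 346 floxed counts over 593105 bp, where Fgf4 had 317 over 3858 bp. Fgf11, a short gene of the same branch (3424 bp), had 9.44 CPM per kb in floxed. Fgf7, an epithelial growth factor, and Gdf1, a left-right patterning gene, had 0 counts in all 3 H3K27me3 libraries. By RefSeq positions other genes overlap 100% of the span of each (Fam227b for Fgf7, Cers1 and Upf1 for Gdf1). Fgf1 is also overlapped over 100% of its span (by Arhgap26 and Gm5820) and had 481, 562 and 910 counts. The sources used here do not say how reads in overlaps were counted, and what the 0 of Fgf7 and Gdf1 measures was not tested. In all, 53 of the 62 genes were measured for H3K27me3. The 9 others were Bmp15, Fgf7, Fgf21, Fgf22, Gdf1, Gdf2, Gdf5, Gdf9 and Gdf15, and the nearest to the filter was Gdf2 with a mean of 18.3 counts. The smallest mean inside it was that of Wnt8a, 22.7 counts, and Wnt8a passed only through its rescue count of 49.

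A larger share of these genes than of all genes had a CpG-rich promoter, a difference that was not tested. RefSeq promoters on GRCm38.p6, 250 bases before to 50 after the start, matched 44 of the 62 genes by gene identifier. Where a gene had several, the one with the most CpG was used. Of these, 26 (59.1%) had a CpG observed to expected ratio of at least 0.6 and a GC share of at least 50%, against 47.5% of 18458 genes with a promoter. By family these were 12 of 15 Wnt, 8 of 16 Fgf, 2 of 7 Bmp and 4 of 6 Gdf promoters. The Bmp share (28.6%) lay below that of all genes. For comparison, 11 of 22 Hox promoters (50%) and 33 of 50 of Fox, Sox and Tbx factors (66%) were CpG-rich. Across all genes the median floxed H3K27me3 density was 0.137 CPM per kb for CpG-rich and 0.437 for other promoters, whereas across the ligand genes it was 4.94 and 3.61. Across 42 ligand genes with a promoter and a floxed density above 0, promoter CpG count and log2 density had a Pearson r of 0.21 and a Spearman rho of 0.18. This is a weak relation across genes of 1 library, which are not replicates. The 250 bases before the start are given for Fgf10, called in both marks, and for the called genes with the highest and lowest CpG ratio, Wnt4 and Bmp5, 5′ to 3′ on the plus strand with each CpG in capitals. The bases shown hold 8 CpG for Fgf10 (chr13:118714449-118714698), 44 for Wnt4 (chr4:137277385-137277634) and 4 for Bmp5 (chr9:75775115-75775364).
Fgf10: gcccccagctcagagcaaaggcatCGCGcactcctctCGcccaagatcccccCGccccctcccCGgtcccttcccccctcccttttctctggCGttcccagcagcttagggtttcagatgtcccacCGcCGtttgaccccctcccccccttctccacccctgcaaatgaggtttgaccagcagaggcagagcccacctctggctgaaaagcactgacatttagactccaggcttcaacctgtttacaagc
Wnt4: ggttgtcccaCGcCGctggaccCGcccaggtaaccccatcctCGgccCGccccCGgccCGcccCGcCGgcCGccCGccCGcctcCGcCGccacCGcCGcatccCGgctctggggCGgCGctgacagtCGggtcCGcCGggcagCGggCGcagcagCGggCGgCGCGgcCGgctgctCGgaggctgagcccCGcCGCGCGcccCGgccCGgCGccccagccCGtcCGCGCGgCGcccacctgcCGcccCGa
Bmp5: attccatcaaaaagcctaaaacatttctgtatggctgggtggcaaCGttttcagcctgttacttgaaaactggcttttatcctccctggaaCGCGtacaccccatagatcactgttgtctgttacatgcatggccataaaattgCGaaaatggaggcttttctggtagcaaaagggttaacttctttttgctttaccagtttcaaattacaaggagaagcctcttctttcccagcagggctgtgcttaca
Over the whole 300 bases the CpG observed to expected ratio was 0.394 for Fgf10, 0.977 for Wnt4 and 0.284 for Bmp5. It was 0.842 for Fgf2 and 0.744 for Wnt6, the other genes called in both marks. Genes called in either mark thus had CpG-rich as well as CpG-poor promoters.

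In the deleted library, H3K27me3 lay slightly below the floxed library over most ligand genes, and 2 genes were lower by the size rule. These were 2 of 53 measured genes (3.77%), Wnt6 and Fgf4, and 0 were higher. Over all genes 5.39% were lower and 4.72% higher, so the share of called ligand genes is no larger than the background. The log2 ratio was negative at 41 of the 53, against 4995 of 10604 over all genes. Its median was -0.15 (interquartile range -0.41 to -0.02), against 0.02 over all genes. The family medians were -0.19 for Wnt, -0.27 for Fgf, -0.05 for Bmp and -0.37 for the 5 measured Gdf genes. Hox genes had a median of -0.60 with 18 of 31 lower, and Fox, Sox and Tbx factors -0.27 with 8 of 62 lower.

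Wnt6, which signals in epithelia and kidney (chromosome 1, 74754342 to 74785322), had 277 floxed, 162 deleted and 376 rescue H3K27me3 counts. In CPM per kb these were 8.44, 4.76 and 6.66, lowest in deleted. The CPM ratio of deleted to floxed was 0.564 (0.462 to 0.687). The counted length of Wnt6, 13428 bp, is shorter than this RefSeq span. Its neighbour Wnt10a, 6696 bp away, had 670, 534 and 1212 counts and a log2 ratio of -0.38, against -0.82 for Wnt6. Fgf4 (chromosome 7, 144861386 to 144865245) had 317, 201 and 486 counts, a CPM ratio of 0.611 (0.510 to 0.732). Fgf4 lies between Fgf3 and Fgf15, at distances of 18037 and 31286 bp. These neighbours had log2 ratios of -0.41 and -0.46, against -0.71 for Fgf4, so all 3 genes of the stretch lay below 0 and 1 met the size rule. Just outside the rule, Wnt10b had 234, 162 and 328 counts, a CPM ratio of 0.667 (0.543 to 0.819), and Fgf11 79, 55 and 104 and a ratio of 0.671 (0.467 to 0.959). Wnt2b followed with 0.680 (0.528 to 0.873) and Fgf8 with 533, 381 and 871 counts and 0.689 (0.603 to 0.788). With edgeR TMM factors or DESeq2 size factors in place of library totals, 4 ligand genes were lower, with Wnt10b and Fgf11 added. When libraries were scaled to 80 ribosomal protein genes, which carry few H3K27me3 counts, 46 were lower, with the median of all genes at -0.76. At the other end, Fgf14 had 270, 386 and 458 counts, a CPM ratio of 1.38 (1.18 to 1.62), and Wnt9b 238, 302 and 321 and a ratio of 1.22 (1.03 to 1.46).

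The median difference was larger among genes with dense H3K27me3, as a description with no test. To keep the level apart from the compared libraries, genes were split by density in the rescue library. In the top 10% of all genes by rescue density, 31 ligand genes had a median log2 ratio of -0.36 for deleted against floxed, and 29 of them lay below 0. The 22 measured ligand genes outside it had a median of -0.03, with 12 below 0. The same split over all genes gave -0.26 for 2389 genes, with 1934 below 0, and 0.10 for 8215, with 3061 below 0. Most genes of any kind in the dense class thus lay below 0. In both classes the ligand genes lay somewhat lower than all genes of their class. That gap was not tested.

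**Figure D2:**
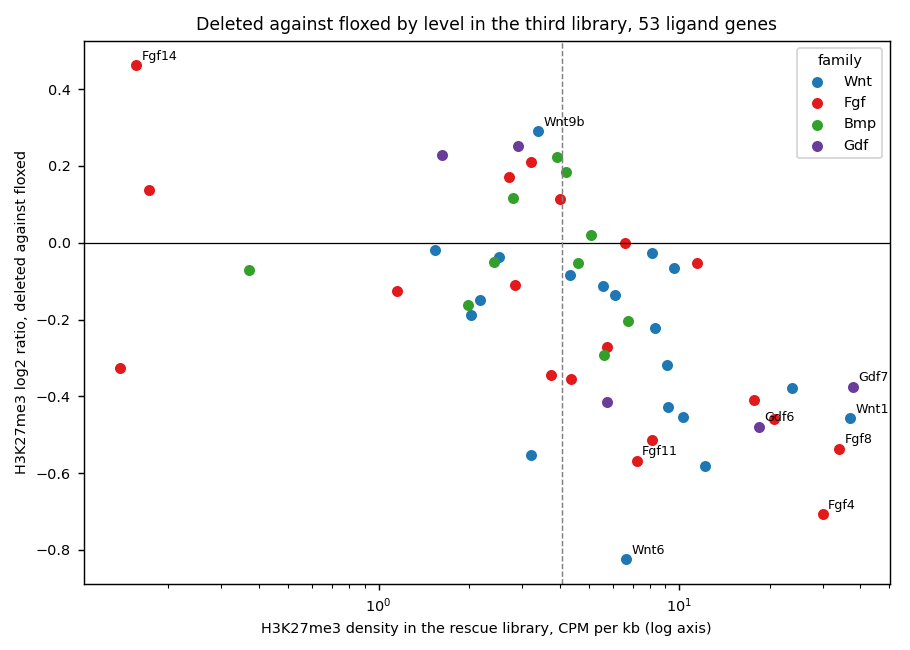
H3K27me3 log2 ratio of deleted against floxed for the 53 measured ligand genes, against density in the rescue library in CPM per kb on a log axis; each point is 1 gene, coloured by family, and the dashed line is the lower bound of the top 10% of all genes. Right of the line the median is -0.36 and left of it -0.03, with Wnt6 and Fgf4 the lowest points.

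In the rescue library H3K27me3 differed from the deleted library in both directions. Of the 53 measured genes, 5 were lower (9.43%, against 11.3% of all genes) and 3 higher (5.66%, against 7.07%). The median log2 ratio was 0.07, against -0.06 over all genes. With TMM factors 3 were lower and 5 higher, and with size factors 4 and 4. Over all genes TMM factors moved the split from 1196 lower and 750 higher to 991 and 935. Family medians lay between 0.00 for Bmp and 0.26 for Gdf; all of them lay above 0 with library totals, TMM factors and size factors, and all below 0 when libraries were scaled to ribosomal protein genes. Rescue against floxed, 3 genes were lower (5.66%, against 8.05% of all genes) and 2 higher (3.77%, against 5.72%), with a median of -0.10 against -0.05. Rescue against deleted shares its deleted library with deleted against floxed, and rescue against floxed shares a library with each, so the comparisons are not independent of one another. Wnt6 had ratios of 1.40 (1.16 to 1.69) against deleted and 0.789 against floxed, and Fgf4 1.46 (1.23 to 1.73) and 0.892. Neither gene was called in these comparisons, and Fgf4 was called higher against deleted with TMM factors or size factors.

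H3K27me3 in the rescue library was lowest relative to both others at Wnt5a and Fgf10. Wnt5a, a ligand of non-canonical Wnt signalling (chromosome 14, 28504543 to 28527448), had 231, 216 and 183 counts, or 4.72, 4.25 and 2.17 CPM per kb. The ratio was 0.511 (0.417 to 0.625) against deleted and 0.461 (0.377 to 0.562) against floxed, while deleted against floxed had 0.902. The flanking gene Erc2, 26005 bp away, had 1618, 1854 and 2739 counts and was not called in any pair. Fgf10, a mesenchymal signal for limb and lung buds (chromosome 13, 118714699 to 118792573), had 470, 447 and 376 counts, or 2.47, 2.26 and 1.15 CPM per kb. Its ratio was 0.507 (0.441 to 0.583) against deleted and 0.465 (0.405 to 0.534) against floxed. Bmp4 (chromosome 14, 46383525 to 46390669) had 133, 133 and 137 counts in libraries of unequal depth. These gave ratios of 0.621 (0.486 to 0.795) against deleted and 0.599 (0.468 to 0.766) against floxed. By RefSeq positions Gm15217 and Gm15222 overlap 26.4% of the span of Bmp4. In the floxed and deleted libraries Wnt5a, Fgf10 and Bmp4 had nearly the same level, and the rescue library alone stood apart.

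Wnt9b, a kidney ligand (chromosome 11, 103727362 to 103775272), had 238, 302 and 321 counts, a CPM ratio of 0.641 (0.546 to 0.753) for rescue over deleted, and was not called against floxed. Its neighbour Wnt3 had 1156, 962 and 1675 counts and log2 ratios of -0.32 for deleted against floxed and 0.07 for rescue against deleted, where Wnt9b had 0.29 and -0.64. The ends of these adjacent genes overlap in the RefSeq table. Fgf12 had 346, 395 and 429 counts, a CPM ratio of 0.655 (0.570 to 0.753) against deleted. Its flanking gene Mb21d2 had 161, 197 and 150 counts and a log2 ratio of -1.12 in that comparison. The calls of Wnt9b and Fgf12 were lost with TMM factors, at log2 ratios of -0.57 and -0.54, and that of Fgf12 also with size factors, at -0.56.

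At 3 genes the rescue library had more H3K27me3. Fgf2, a broadly acting growth factor (chromosome 3, 37348477 to 37410106), had 254, 244 and 672 counts, or 1.85, 1.71 and 2.85 CPM per kb. The ratio was 1.66 (1.43 to 1.93) against deleted and 1.54 (1.33 to 1.78) against floxed. When libraries were scaled to ribosomal protein genes, its log2 ratio against deleted went from 0.73 to 0.09, which ended the call, and that against floxed turned from 0.62 to -0.81, with the median of all genes at -1.48. By RefSeq positions the antisense gene Fgf2os and Nudt6 together overlap 10.5% of the span of Fgf2. Reads in an overlap cannot be told apart by gene. Fgf2os had 270, 250 and 514 counts and a log2 ratio of 0.31 against deleted. Spata5, 9796 bp beyond Fgf2, had 32, 35 and 47 and -0.30. Neither Fgf2os nor Spata5 was called. Wnt8a, an early embryonic Wnt (chromosome 18, 34542327 to 34548061), had 10, 9 and 49 counts and ratios of 3.28 (1.60 to 7.61) against deleted and 2.85 (1.43 to 6.31) against floxed. It passed the filter through its rescue count, so a difference was built into its selection. Bmp5, a skeletal Bmp, had 78, 77 and 193 counts, a CPM ratio of 1.51 (1.16 to 2.00) against deleted, just past the size rule, and 1.44 against floxed, just short of it. Its log2 ratio against deleted, 0.59, turned to -0.05 with scaling to ribosomal protein genes, where the median of all genes was -0.70.

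**Figure D3:**
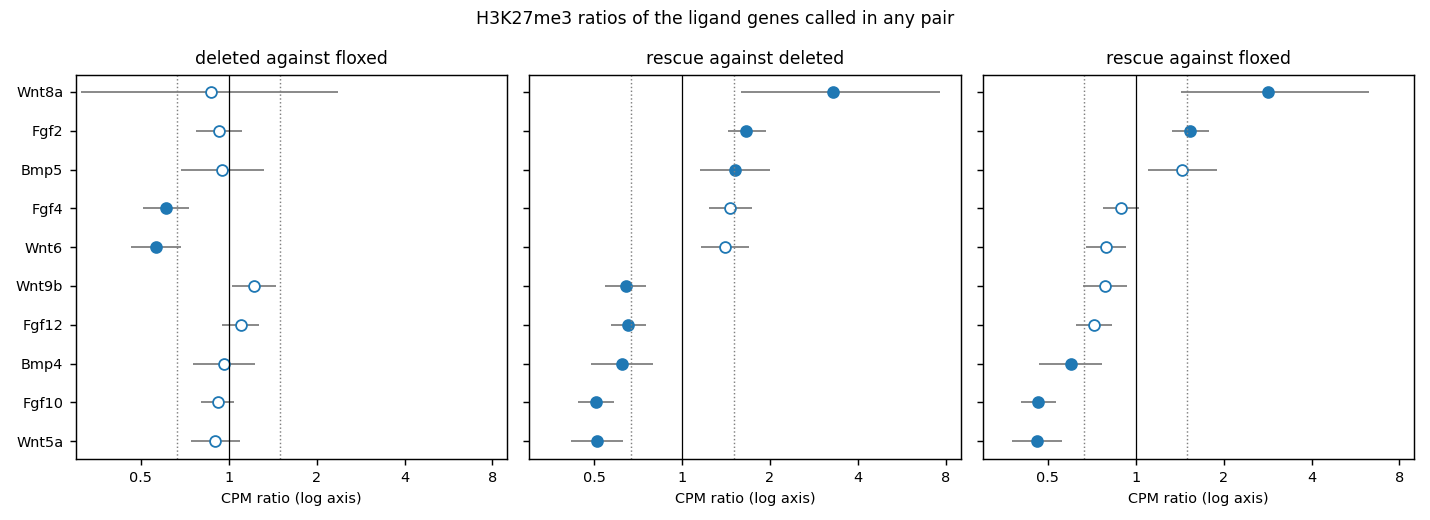
CPM ratio of H3K27me3 on a log axis for the 10 ligand genes called in any pair, with 1 panel per pair of libraries; bars are 95% exact intervals covering counting error, filled points met the size rule, and dotted lines mark a ratio of 1.5 in either direction. Wnt6 and Fgf4 are the 2 filled points in the left panel, and Wnt5a, Fgf10 and Bmp4 are low in both comparisons of the rescue library.

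H3K4me3 counts were low over the ligand genes, as over most genes. The median H3K4me3 count in the window was 5.5 in floxed, 4.5 in deleted and 3 in rescue, against 1 in each library over all genes, and 11 of the 62 genes, against 5256 of all 26610, had 0 counts in all 3 libraries. Measured were 14 genes (22.6%, against 25.1% of all genes): 6 Wnt, 5 Fgf, 3 Gdf and 0 Bmp genes. The nearest to the filter were Bmp6 with a mean of 18.3 counts and, inside it, Wnt3 with 24.3. Wnt9a had the most H3K4me3, with 128, 71 and 95 counts, followed by Wnt4 with 80, 55 and 25. Of the 14, 11 also lay in the floxed top 10% by H3K27me3 density, among them Wnt9a, Wnt4, Wnt1 and Gdf7. Over all genes 607 of 6681 measured genes did. The overlap was not particular to the ligand genes, with 11 of 13 Hox genes and 13 of 23 Fox, Sox and Tbx factors. Both marks were thus counted at these 11 ligand genes, though in a population of cells and over different stretches of the gene. Gdf15, a stress-induced cytokine, was the measured gene with little H3K27me3: 57, 31 and 21 H3K4me3 counts stood beside 1, 0 and 5 H3K27me3 counts.

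Between the deleted and floxed libraries, 0 of the 14 genes were lower and 2 higher in H3K4me3, against 4.39% and 3.02% of all genes. These were Fgf10 and Fgf2. Fgf10 had 28, 33 and 38 counts, or 43.4, 78.4 and 96.2 CPM, and a ratio of 1.81 (1.06 to 3.11) for deleted over floxed. Fgf2 had 51, 51 and 13 counts, or 79.0, 121 and 32.9 CPM, and a ratio of 1.53 (1.02 to 2.31). Both lower bounds lie close to 1, both calls were lost with a 99% interval, and that of Fgf2 also with TMM factors or with scaling to olfactory receptor genes. TMM factors moved the split over all genes from 293 lower and 202 higher to 403 and 139. The median log2 ratio of the 14 genes was 0.14, against -0.03 over all 6681 measured genes.

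In the rescue library 5 of the 14 genes had less H3K4me3 than in the deleted library and 0 had more, against 5.97% and 4.49% of all genes. The genes were 3 Fgf genes (Fgf2, Fgf16 and Fgf9), Wnt4 and Gdf6. Fgf2 had a ratio of 0.271 (0.135 to 0.506). Fgf16, a heart-expressed Fgf on chromosome X, had 50, 36 and 12 counts, a CPM ratio of 0.355 (0.168 to 0.698). Wnt4, a signal of kidney and gonad development (chromosome 4, 137277635 to 137299501), had 0.484 (0.289 to 0.790). Fgf9, a gonad and lung signal, had 43, 33 and 15 counts and also 0.484 (0.244 to 0.916), and Gdf6 had 33, 29 and 13 counts and 0.477 (0.228 to 0.947). In CPM the rescue library was also below floxed at each of these 5 genes. They were picked as lower than deleted, so this adds little. Gdf15 and Wnt3, which were not called, were also lowest in rescue, at 53.2 and 45.6 CPM. The calls of Fgf9 and Gdf6 were lost with a 99% interval, and those of Fgf9, Gdf6 and Wnt4 when libraries were scaled to 1101 olfactory receptor genes, where all genes had a median of 0.39. The remaining 9 genes did not meet the rule, and the median of all 14 was -0.06, against 0.03 over all genes.

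**Figure D4:**
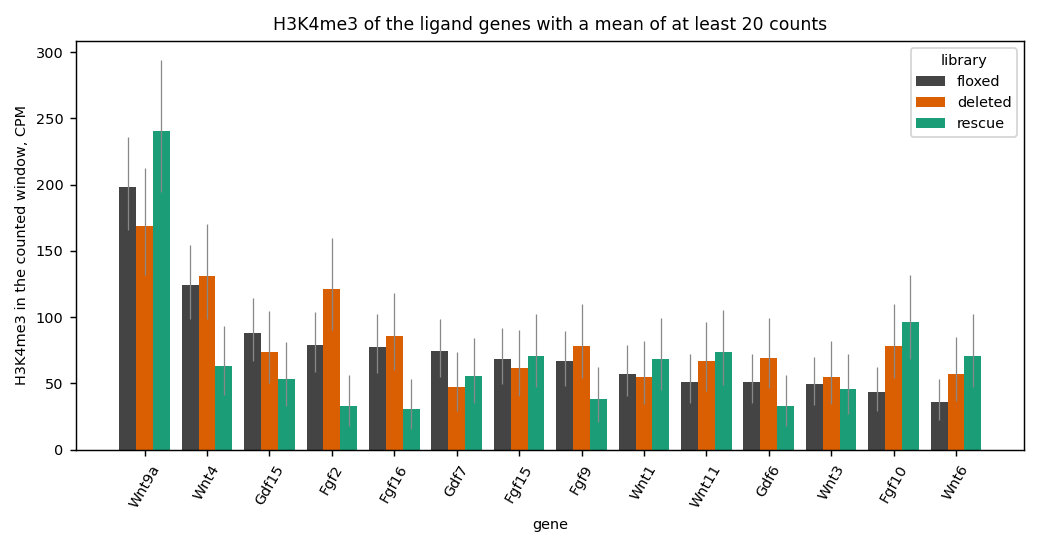
H3K4me3 in the counted window, in CPM, for the 14 measured ligand genes in the 3 libraries; bars start at 0 and the thin lines are 95% exact Poisson intervals of the count. The rescue bars of Fgf2, Fgf16, Wnt4, Fgf9 and Gdf6, and of Gdf15 and Wnt3, which were not called, are the lowest of their gene. Those of Fgf10, Wnt6, Wnt1, Wnt11, Wnt9a and Fgf15 are the highest.

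Against the floxed library, 3 of the 14 genes were lower in rescue (Fgf2, Fgf16 and Wnt4) and 2 higher (Fgf10 and Wnt6), against 3.92% and 1.92% of all genes. The ratios were 0.416 (0.208 to 0.776) for Fgf2, 0.392 (0.190 to 0.746) for Fgf16 and 0.510 (0.312 to 0.808) for Wnt4. Fgf10 had 2.22 (1.32 to 3.75). Wnt6 had 23, 24 and 28 counts and 1.99 (1.10 to 3.61), a call lost with a 99% interval. Rescue counts of H3K4me3 come from the shallowest library, where all of the 14 genes but Wnt9a had fewer than 40 counts, so smaller differences were not detectable at this depth.

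In rescue against floxed, 2 of the 13 ligand genes measured in both marks were called in both, with the marks in opposite directions. Both are Fgf genes. The share of all genes called this way was not counted, so nothing is read from the number. Fgf2 had a log2 ratio against floxed of 0.62 in H3K27me3 and -1.21 in H3K4me3. Fgf10 had -1.10 in H3K27me3 and 1.11 in H3K4me3. The H3K4me3 of Fgf10 was already higher in the deleted library, and its ratio of rescue to deleted, 1.23 (0.749 to 2.02), was not called. The H3K27me3 direction of Fgf2 turned with scaling to ribosomal protein genes, as given above. The promoter of Fgf2 is CpG-rich and that of Fgf10 is not. Wnt6 had log2 ratios of 0.95 in H3K4me3 and -0.34 in H3K27me3, the latter not called. Fgf16, Fgf9 and Wnt4 showed less H3K4me3 in rescue with H3K27me3 log2 ratios of -0.24, -0.03 and -0.20, none of them called.

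**Figure D5:**
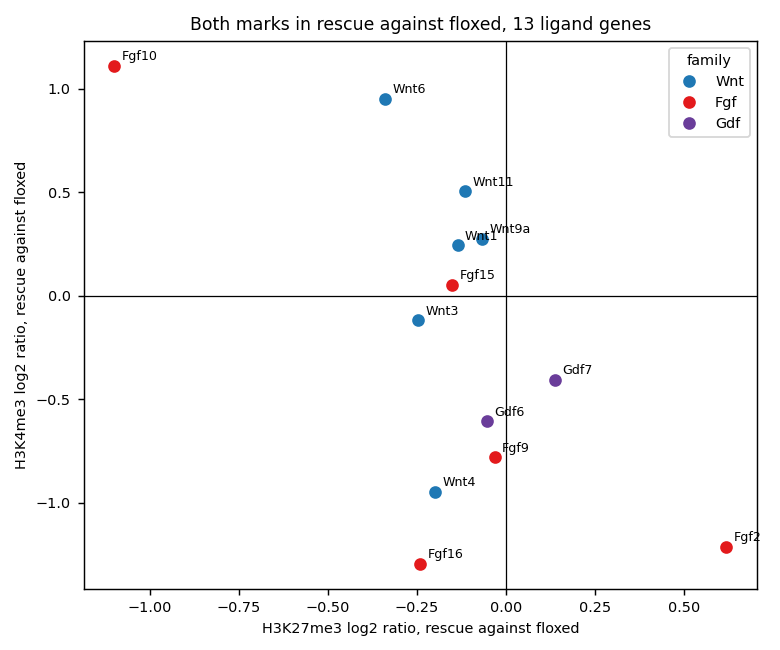
H3K4me3 against H3K27me3 log2 ratio of rescue against floxed for the 13 ligand genes measured in both marks; each point is 1 gene, coloured by family. Fgf10 lies at the upper left (-1.10 and 1.11) and Fgf2 at the lower right (0.62 and -1.21; -0.81 in H3K27me3 when scaled to ribosomal protein genes).

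The receptors, antagonists and transducers of the same pathways were counted in the same way, and the calls per list are to be read against 5.39% lower and 4.72% higher over all genes. In H3K27me3 of deleted against floxed, 0 of 13 measured Wnt receptor genes were called. Of the Wnt antagonists 1 of 13 was lower, Sfrp5, with 225, 149 and 311 counts. Of the Wnt transducers and targets 1 of 11 was higher, Lgr5, the receptor for R-spondins, with 75, 156 and 193 counts. Of 7 Fgf receptor and co-receptor genes, Fgfr4 was lower with a ratio of 0.623 (0.519 to 0.746) and Kl, which encodes Klotho, higher with 1.72 (1.06 to 2.84). Of 11 Bmp and Gdf receptor genes 2 were higher, Bmpr1b with 1.72 (1.35 to 2.19) and Eng with 1.73 (1.25 to 2.40). Among 9 Bmp and Gdf antagonists, Nog, which encodes noggin, was lower with 171, 114 and 245 counts, and Grem1 higher with 10, 27 and 48. Grem1 passed the filter only through its rescue count, and its ratio of 2.60 had a wide interval (1.22 to 6.03). None of 6 Fgf feedback genes, 7 Bmp transducers and targets and 10 other ligands of the TGF-beta family was called. The list medians ranged from -0.32 (Fgf receptors) to 0.09 (other TGF-beta ligands).

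Between the rescue and deleted libraries, H3K27me3 met the size rule at 1 or more genes of each list, where 11.3% of all genes were lower and 7.07% higher. With 6 to 13 measured genes in a list, these counts set no list apart. In the Wnt pathway, 3 of 13 receptor genes had more H3K27me3 and 0 less: Fzd3 with 701, 779 and 2015 counts, Fzd5 with 103, 114 and 345, and Ryk with 1104, 805 and 2141. Of 13 Wnt antagonist genes 1 was higher and 2 lower, and of 11 transducers and targets 2 were lower. Rnf43, a membrane ubiquitin ligase that removes Frizzled receptors, had 21, 12 and 323 H3K27me3 counts, a ratio of 16.2 (9.17 to 31.8). Like Wnt8a, it passed the filter through its rescue count. Its H3K4me3 window had 175, 114 and 59 counts, a ratio of 0.551 (0.395 to 0.761). A large rise of H3K27me3 in rescue was not confined to the pathway lists. The myeloid marker Mpo had 5, 6 and 483 H3K27me3 counts, a ratio of 48.6 (22.1 to 133). Mpo also passed the filter through its rescue count. The H3K4me3 counts of Mpo were 89, 49 and 32, called lower in rescue against floxed (0.587) but not against deleted. Whether the differences at Rnf43 and Mpo are related was not tested. Znrf3, a relative of Rnf43, lay the other way in H3K27me3, with 483, 617 and 492 counts, a CPM ratio of 0.481 (0.426 to 0.542). Tcf7 and Tcf7l2, which encode transcription factors of the pathway, were lower with ratios of 0.562 and 0.621, and the H3K4me3 of Axin2, a feedback target, was lower with 31, 35 and 12 counts. Axin2 had been higher in deleted against floxed, with a ratio of 1.73 (1.04 to 2.90). For the Fgf pathway, Etv4, a target of Fgf signalling, had 198, 226 and 78 H3K27me3 counts, a CPM ratio of 0.208 (0.159 to 0.270). For the Bmp pathway, the receptor gene Bmpr1a had 58, 76 and 311 counts, a CPM ratio of 2.47 (1.92 to 3.22), and Smad1 1.68 (1.29 to 2.20). Kl was lower (28, 50 and 36 counts). Among the Bmp antagonists Fst, which encodes follistatin, was lower and Chrdl1 higher, with 133 deleted and 134 rescue counts for Fst and 69 and 193 for Chrdl1. Of 10 other ligands of the family 2 were lower, the inhibin subunit genes Inhba (62 deleted and 61 rescue counts) and Inhbe (26 and 18). The secreted Wnt antagonist Frzb was lower, with 306, 363 and 399 counts. The H3K4me3 of Id1, a target of Bmp signalling, was 91, 37 and 67 counts. This is a ratio of 0.624 (0.414 to 0.923), deleted over floxed, and of 1.93 (1.27 to 2.96), rescue over deleted. Other H3K4me3 calls of rescue over deleted were Fzd7 (1.53), Tcf7l2 (1.77), Spred2 (1.57), Acvr1b (1.77) and Fstl3 (1.88), all higher, and Il17rd (0.544) and Id4 (0.466), both lower. The intervals of Spred2 (1.007 to 2.46) and Fzd7 (1.085 to 2.16) began close to 1. In H3K4me3 of this pair 5.97% of all genes were lower and 4.49% higher. With 1 to 10 genes of a list measured in H3K4me3, these calls set no list apart. In deleted over floxed the H3K4me3 of Dvl2 was lower as well, with a ratio of 0.656 (0.466 to 0.911). In that pair 4.39% of all genes were lower and 3.02% higher in H3K4me3.

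Few Flag summits lay at any genes, the ligand genes included. The authors' lists held 475, 220 and 429 summits for floxed, deleted and rescue. Within 10 kb of a ligand gene lay 1, 1 and 2 of them. One was in Fgf14, at nearly the same base in all 3 libraries (chromosome 14, 124496624, 124496636 and 124496625), and so also where no tagged Hhex was present. The other was in Fgf13, in the rescue library only (chromosome X, 59454934), with a −log10 score of 3.55 that ranked 330 among the 429. Fgf13 had 28, 23 and 42 H3K27me3 counts and 0 H3K4me3 counts in each library. Its counted length, 72287 bp, is shorter than its RefSeq span (59062139 to 59585572). Whether the H3K27me3 counts cover the summit is not known. Over all placed genes, 0.692%, 0.324% and 0.582% had a summit within 10 kb in floxed, deleted and rescue, and 1.69%, 0.760% and 1.49% had one within 50 kb, where the counts of ligand genes were again 1, 1 and 2. With shares this low nothing is read from these counts, nor from the lack of a summit at the 14 ligand genes called in either mark.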

How the data were processed

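For the histone marks the authors deposited raw counts, 1 whole number per gene and library, in 6 files. FeatureCounts, MACS2 and mm10 are named per the submitters' processing notes; versions and aligner are not given in the sources used here. Left out were 568 rows without a symbol (0.608% to 0.739% of counts). The Flag files hold summits with a −log10 score deposited by the authors, in the layout of MACS2.

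CPM, exact conditional (Clopper-Pearson) intervals and log2 ratios (prior count 1, scaled to library size) were computed with scipy 1.17.1; edgeR 4.0.16 and DESeq2 1.42.0 gave alternative scalings. The procedure was tested on simulated counts. Gene positions and promoters came from RefSeq (GRCm38.p6); promoters whose bases lie inside the gene's own span were not printed. The members and gene lists were chosen with earlier results of these data known. Named are genes called in any pair, the 3 densest per family, genes measured in H3K4me3 and genes with a summit within 10 kb; of the pathway lists, genes called in deleted against floxed or rescue against deleted. No test between groups was possible with 1 library each.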

Additional observations from a re-analysis of the deposited data

How the results depend on the processing

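No paired analysis was possible because each group has 1 library. The counts of called ligand genes are small and move with the settings. With library totals, H3K27me3 gave 2 lower and 0 higher (deleted against floxed), 5 and 3 (rescue against deleted) and 3 and 2 (rescue against floxed). TMM factors gave 4 lower in the first and 3 lower and 5 higher in the second, and DESeq2 size factors 4 lower in the first. A ratio of at least 2 left 0 lower in the first, 0 lower and 1 higher in the second and 1 higher in the third, and a mean of at least 50 counts 1 higher in the third. Scaling H3K27me3 to 80 ribosomal protein genes, which hold 73, 131 and 340 counts in floxed, deleted and rescue, put the median of all genes at -0.76, -0.70 and -1.48 in the 3 comparisons and gave 46 lower, then 25 lower and 1 higher, then 52 lower and 0 higher. The log2 ratio of Bmp5 in rescue against deleted then turned to -0.050 and that of Fgf2 in rescue against floxed to -0.81, both above their all-gene median.

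For H3K4me3, deleted against floxed gave 2 higher; TMM factors and scaling to 1101 olfactory receptor genes left 1, and a mean of at least 50 counts, a ratio of at least 2 or a 99% interval left 0. Rescue against deleted gave 5 lower; olfactory scaling, which put the all-gene median at 0.39, gave 2 lower and 1 higher, a mean of at least 50 counts 1 lower and a 99% interval 3 lower. In rescue against floxed, a mean of at least 50 counts left 1 lower and 0 higher, and a ratio of at least 2 or a 99% interval 1 higher. Counts in the top 10% and Flag counts were the same within 1.5 times under their alternatives.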
